A study of Ditylenchus destructor and Heterodera glycines and Meloidogyne incognita with 162 samples.

Results

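The comparison described here set Moving embryos against 2-fold embryos of the potato rot nematode Ditylenchus destructor over every gene of the species' count table. Its members were the 5 libraries labelled Moving and the 5 labelled 2-fold, which are 10 of the 54 libraries of this species and of the 162 libraries of the series, and the table held 15798 genes. In the study, single embryos of 3 plant-parasitic nematodes were sequenced at 11 stages from the zygote to L1, the first larval stage. The labels give both groups as whole organisms and differ only in the stage. According to the methods, all embryos were of strain Dd1115 and came from infected sweet potato tubers. Each embryo was cut open, lysed and taken through Smart-seq2, a full-length method that primes on the poly(A) tail and carries no molecular identifiers, and was sequenced with paired ends. Whether the replicates of a stage came from separate cultures is not stated. According to the paper, more individuals were sampled at each stage, and the replicates were filtered from them. The p-values given here therefore reflect only how much these kept embryos differed from each other. A library averages all cells of an embryo, so that fewer cells of a type and less RNA per cell cannot be told apart.

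In nematodes, cleavage and gastrulation are followed by elongation, in which the epidermis squeezes a ball of cells into a worm that folds inside the eggshell, and the stage names 1.5-fold and 2-fold describe how far this has gone. In Caenorhabditis elegans, the best studied nematode, body wall muscle starts to contract at about this time, the embryo begins to twitch and then to roll in the egg, and the epidermis later secretes the collagen cuticle that the hatching larva wears. In the order of stages in the study, Moving follows 2-fold and precedes L1. No marker of muscle, epidermis or cuticle was used to check the stage labels, because the files give gene IDs without names and 0 of them could be found among the 21600 genes of the reference table.

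The libraries held 3397808 to 6187425 counts at Moving and 4002831 to 9326223 counts at 2-fold. Moving embryos had 12996, 13815, 13504, 12641 and 8034 genes at 1 CPM or more (CPM, counts scaled to a library total of 1000000), against 11977, 11628, 12909, 13498 and 8798 genes in 2-fold embryos. Moving 5 and 2-fold 5 were the lowest of their stages. The paper counted genes by TPM, a different measure. For the sample that matches Moving 5 by number, it gave a far higher number than here, though still the lowest at Moving. That sample also had the lowest alignment rate of its stage. For the other Moving samples the paper's numbers were close to these. The cause of the difference was not tested. The means were 12198 ± 2371 genes at Moving and 11762 ± 1815 genes at 2-fold (SD, n = 5 each), a difference that did not exceed the spread between embryos (two-sided exact permutation test, p = 0.643). Without Moving 5 the Moving mean was 13239 ± 522 genes (SD, n = 4) and the difference 1477 genes (exact permutation p = 0.127). Without 2-fold 5 it was -305 genes, the opposite direction. With every library thinned to 3397808 counts, the total of Moving 5, that embryo still had the fewest genes, and the lowest 2-fold embryo had 8774.

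Moving 5 stood apart from the other embryos in a second way. Of the 6973 genes that reached 1 CPM in all 9 other libraries, 1565 (22.4%) had 0 counts in it, and the same measure gave 485 of 5869 genes (8.26%) in 2-fold 5 and at most 76 genes in any of the other 8 libraries. The mean Pearson r of log2(CPM + 1) with the other libraries of the stage was 0.682, 0.698, 0.699, 0.659 and 0.486 in Moving embryos, against 0.718, 0.786, 0.790, 0.754 and 0.713 in 2-fold embryos, over 15343 genes. All 5 Moving values lay below all 2-fold values, but without Moving 5 those of Moving 1 to Moving 4 were 0.743, 0.762, 0.768 and 0.729, within the 2-fold range. The mean r within a stage was 0.645 at Moving and 0.752 at 2-fold, a difference of -0.11 that the exact permutation test of the labels did not separate from the spread (p = 0.421), and without Moving 5 the Moving mean was 0.751. The main results below are given with and without Moving 5, and where only 1 set is used the text names it. No 2 libraries of a stage agreed within counting noise.

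**Figure D1:**
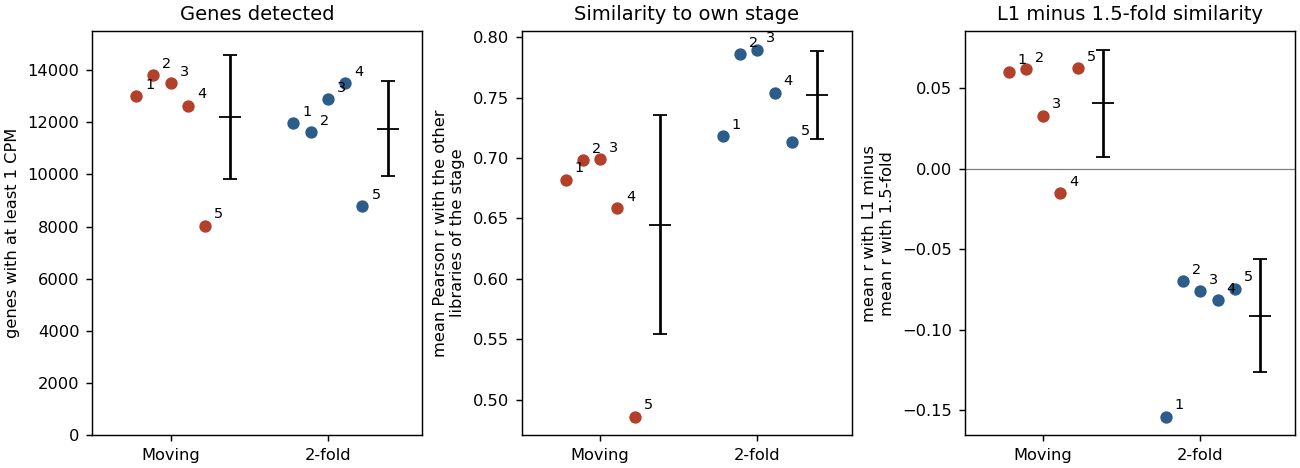
Genes at 1 CPM or more (left), mean Pearson r of log2(CPM + 1) with the other libraries of the same stage (middle) and mean r with the L1 libraries minus mean r with the 1.5-fold libraries (right) for the 5 Moving and 5 2-fold embryos. Points are single embryos with their replicate numbers and bars are the mean ± SD. Moving 5 has the fewest genes (8034) and the lowest r (0.486), and in the right panel all Moving embryos lie above all 2-fold embryos.

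The order of the stages was visible in single embryos. For each library, the mean r with the 5 L1 libraries minus the mean r with the 5 1.5-fold libraries was taken as its position between the stages on either side. The position was 0.0603, 0.0618, 0.0329, -0.0151 and 0.0624 in Moving embryos, against -0.154, -0.0700, -0.0761, -0.0817 and -0.0744 in 2-fold embryos. The stages did not overlap, and the lowest Moving embryo was Moving 4, the lowest 2-fold embryo 2-fold 1. The mean difference was 0.132 (two-sided exact permutation test, p = 0.00794, the smallest that 5 against 5 can give), and without Moving 5 it was 0.126.

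Single embryos differed in the stage that they resembled most. Moving 1 and Moving 2 had their highest mean r with the other Moving libraries. Moving 3 and Moving 4 were slightly closer to the 2-fold libraries (r = 0.707 and 0.720) than to their own stage (0.699 and 0.659), and Moving 5 was closest to L1 (r = 0.523). With Moving 5 left out of the Moving mean, an alternative chosen after seeing the data, Moving 3 and Moving 4 were closest to their own stage too (r = 0.768 and 0.729), and no other closest stage changed. Of the 5 2-fold embryos, 4 were closest to 2-fold, and 2-fold 1 was closest to 1.5-fold (r = 0.790). These similarities are descriptions over shared genes and libraries, and the labels were kept throughout.

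**Figure D2:**
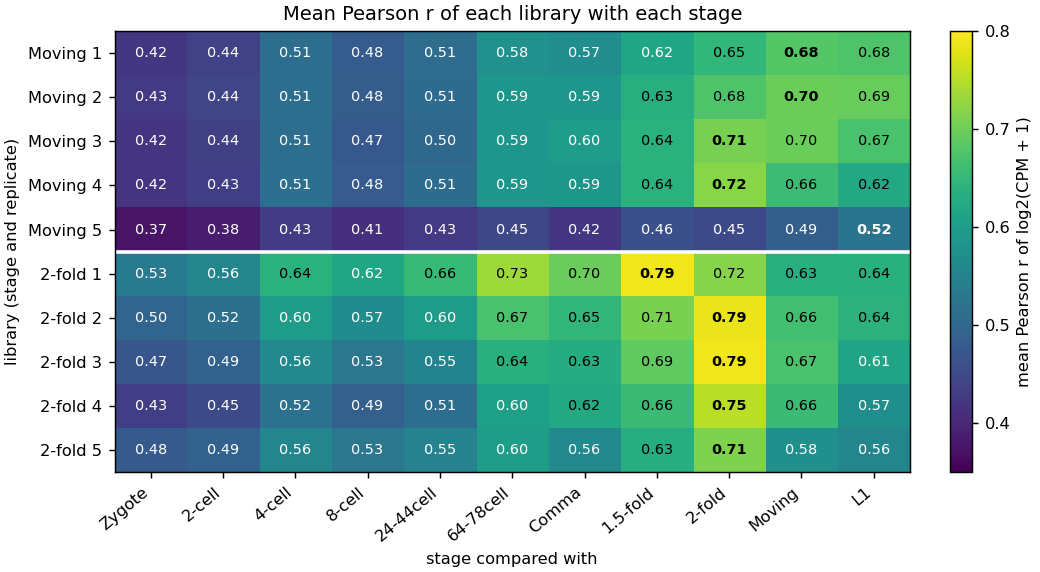
Mean Pearson r of log2(CPM + 1) between each Moving or 2-fold library (rows) and the libraries of each of the 11 stages (columns, in order of development), leaving out the library itself, with the highest value of each row in bold. With Moving 5 counted in the Moving mean, Moving 3 and Moving 4 are highest at 2-fold, by a small margin, Moving 5 at L1 (0.52) and 2-fold 1 at 1.5-fold (0.79).

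With all 10 libraries, 14 of the 12698 genes tested (0.11%) differed between the stages in edgeR's quasi-likelihood test at an adjusted p under 0.05, of which 6 (0.0473%) were higher and 8 (0.063%) lower at Moving. The 6 higher genes had log2 fold changes of 2.85 to 11.47 and the 8 lower genes of -8.88 to -2.90. Of these, 6 of the 6 and 7 of the 8 had no overlap between the embryos of the stages. Among all genes tested, 2.23% were above and 0.977% below without overlap. The same libraries chose the called genes, so part of their separation is fixed by the choice. Without Moving 5, 76 of 13293 genes (0.572%) were called, 38 higher (0.286%) and 38 lower (0.286%) at Moving, and these included all 14. Their log2 fold changes ran between 2.46 and 11.70 (median 7.13) among the higher genes and between -10.69 and -2.58 (median -4.68) among the lower. The changes called were large ones. The median over all genes tested was 0.03 with all 10 libraries and 0.09 without Moving 5, and the spread between embryos, as edgeR's common coefficient of biological variation, was 1.13 with all 10 libraries and 1.01 without Moving 5. Fitted to each stage alone, with its own filter on low counts, this coefficient was 0.70 at Moving (0.61 without Moving 5) and 0.65 at 2-fold.

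Both counts rested on the libraries that entered. With all 10 libraries, 1065 genes had an unadjusted p under 0.05, and leaving out 2-fold 3 or 2-fold 5 left 0 genes called (945 and 1079 at an unadjusted p under 0.05, edgeR), leaving out 2-fold 2 left 3 higher and 2 lower, 2-fold 4 left 1 and 1, and Moving 1, Moving 2 or Moving 3 left 1 and 0, while 15 and 54 were called without 2-fold 1 and 46 and 12 without Moving 4. With scaling by relative log expression the split was 16 higher and 10 lower, with library totals alone it was 25 and 16 (53 and 33 without Moving 5), and DESeq2 called 364 higher and 169 lower.

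**Figure D3:**
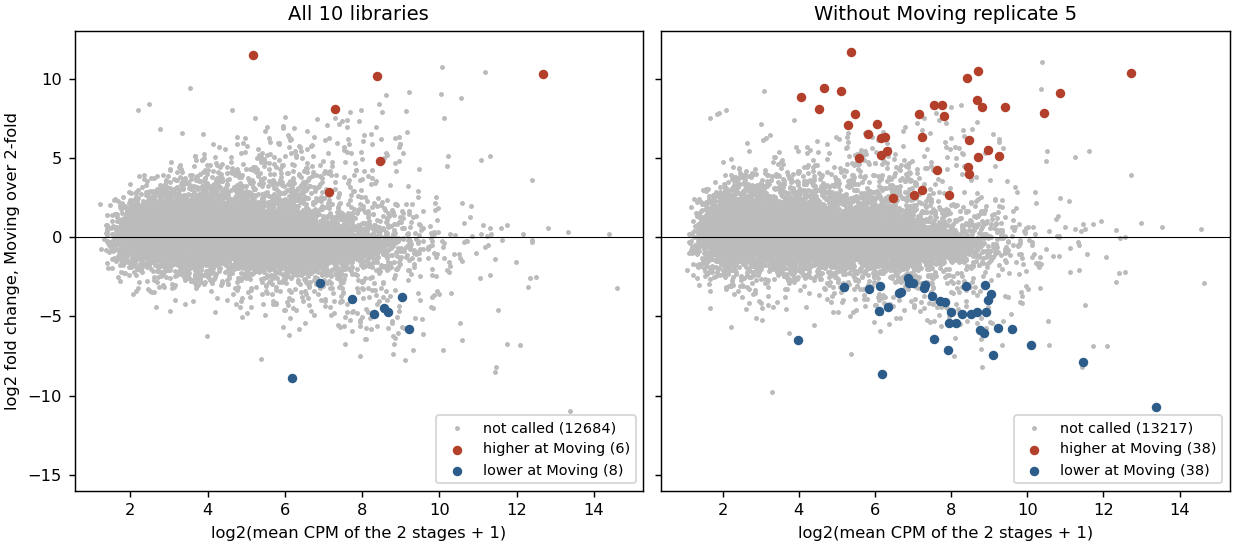
Log2 fold change of Moving over 2-fold from edgeR against log2 of the mean CPM of both stages plus 1, for every gene tested, with all 10 libraries (left) and without Moving 5 (right). Red points were called higher at Moving (6 left, 38 right), blue points lower (8 left, 38 right) and grey points were not called, and the called genes lie at large changes in both panels.

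A direct look at the embryos gave a larger set. With no model, 283 of the 12698 genes (2.23%) had a higher CPM in every Moving embryo than in any 2-fold embryo, and 124 (0.977%) had a lower one. Without Moving 5 the numbers were 624 of 13293 (4.69%) and 184 (1.38%), so that in both sets more genes were above than below. These counts use library totals alone, a scale on which the median log2 fold change of all genes was 0.30 (0.29 without Moving 5). Presence and absence were rarer. Among all 15798 genes of the table, 6 had counts in all 5 Moving embryos and in no 2-fold embryo, and 2 the reverse. With Moving 1 to Moving 4 alone, these were 20 and 2 genes. Such counts also depend on genes missed in single libraries. Of the genes at 1 CPM in all other libraries, 22.4% had 0 counts in Moving 5 and 8.26% in 2-fold 5.

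The called gene with the largest rise at Moving was Dd_06906, on chromosome 2 at 25338791 to 25339701, minus strand. It had 39.6, 150, 46.1, 86.6 and 33.0 CPM in Moving embryos, against 0 counts in each of the 5 2-fold embryos. The stages did not overlap, and all 1910 counts lay at Moving. With counts pooled over each stage and a floor of 3 counts at 2-fold, the gene was 750-fold higher at Moving. This value leaves out the spread between embryos. The log2 fold change was 11.47 (SE 1.31, edgeR adjusted p = 0.0224, and 0.00937 without Moving 5). The level stayed up in larvae, with a mean of 143 ± 79.7 CPM at L1 (SD, n = 5), and no stage before Moving averaged above 1.50 CPM. In the test of L1 over 1.5-fold, which shares no library with this comparison, its log2 fold change was 7.14 (SE 1.32, edgeR adjusted p = 0.00372).

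The gene with the smallest p was Dd_01651, on chromosome 1 at 10731263 to 10734796, minus strand. It had 23662, 11294, 10031, 8904 and 12080 CPM in Moving embryos, against 6.66, 11.6, 5.47, 14.7 and 4.29 CPM in 2-fold embryos. Every Moving embryo, Moving 5 included, was thus far above every 2-fold embryo. The means were 13194 ± 5976 CPM at Moving and 8.55 ± 4.44 CPM at 2-fold (SD, n = 5 each), with a log2 fold change of 10.29 (SE 1.24, edgeR adjusted p = 0.0138, and 0.00358 without Moving 5). From the zygote to 1.5-fold, no stage averaged above 21.7 CPM. The L1 libraries had 613, 7855, 11477, 5043 and 11938 CPM, and L1 exceeded 1.5-fold by a log2 fold change of 8.83 (SE 1.20, edgeR adjusted p = 0.000461).

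The called gene with the largest fall was Dd_08299, on chromosome 3 at 9149949 to 9151669, plus strand. It had 0, 0, 1.92, 0 and 0 CPM in Moving embryos, against 8.95, 137, 249, 110 and 211 CPM in 2-fold embryos. The 8 counts at Moving came from Moving 3 alone, and the lowest 2-fold embryo was 2-fold 1. The log2 fold change was -8.88 (SE 1.49, edgeR adjusted p = 0.0427, and 0.0276 without Moving 5). The means were 0.384 ± 0.858 CPM at Moving and 143 ± 93.6 CPM at 2-fold (SD, n = 5 each), no other stage averaged above 7.18 CPM, and single embryos of the other stages reached at most 26.4 CPM.

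The lower gene with the smallest p was Dd_06218, on chromosome 2 at 20557092 to 20565674, plus strand. It had 13.6, 35.2, 38.6, 44.3 and 50.03 CPM in Moving embryos, against 1203, 367, 752, 395 and 1177 CPM in 2-fold embryos. The highest Moving embryo lay far below the lowest 2-fold embryo. The means were 36.3 ± 13.9 CPM at Moving and 779 ± 405 CPM at 2-fold (SD, n = 5 each), with a log2 fold change of -4.71 (SE 0.64, edgeR adjusted p = 0.0205, and 0.0132 without Moving 5). It was present in earlier stages, with 111 ± 139 CPM at Comma and 445 ± 518 CPM at 1.5-fold, and it averaged 2.53 ± 3.22 CPM at L1 (SD, n = 5 each). L1 against 1.5-fold gave a log2 fold change of -7.03 (SE 1.37, edgeR adjusted p = 0.00508).

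The genes with the highest mean level over the 10 libraries among those not called varied widely between embryos of the same stage. Dd_15379, on chromosome 4 at 33795770 to 33798807, minus strand, had 56.1, 158, 6813, 18830 and 0.29 CPM in Moving embryos, against 77.6, 58710, 54183, 48132 and 60877 CPM in 2-fold embryos. It was high in 4 of the 5 2-fold embryos, and the exception was 2-fold 1, the embryo closest to 1.5-fold. Among Moving embryos it was high in Moving 3 and Moving 4, the Moving embryos with the highest r with the 2-fold libraries and the lowest positions. The log2 fold change was -3.22 (SE 2.22, edgeR adjusted p = 0.838) and -2.89 (SE 2.00, adjusted p = 0.737) without Moving 5. The 9 other stages averaged between 19.1 and 145 CPM, and no library other than those 6 exceeded 627 CPM. Whether the position of an embryo between 1.5-fold and L1 plays a part in this level was not tested.

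Dd_07535, on chromosome 3 at 4084132 to 4088199, minus strand, overlaps 1 other annotated gene, and reads of both could not be told apart where they share sequence. It had 39608, 40077, 14266, 29489 and 1554 CPM in Moving embryos, against 7572, 32877, 21768, 11217 and 15429 CPM in 2-fold embryos. The stages overlapped widely, and Moving 5 was the lowest of all 10. Its log2 fold change was 0.19 (SE 1.29, edgeR adjusted p = 0.996) and 0.49 (SE 1.14, adjusted p = 0.960) without Moving 5, and its sign changed when single other libraries were left out. It was abundant from the zygote on, where it averaged 1453 ± 598 CPM (SD, n = 4).

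**Figure D4:**
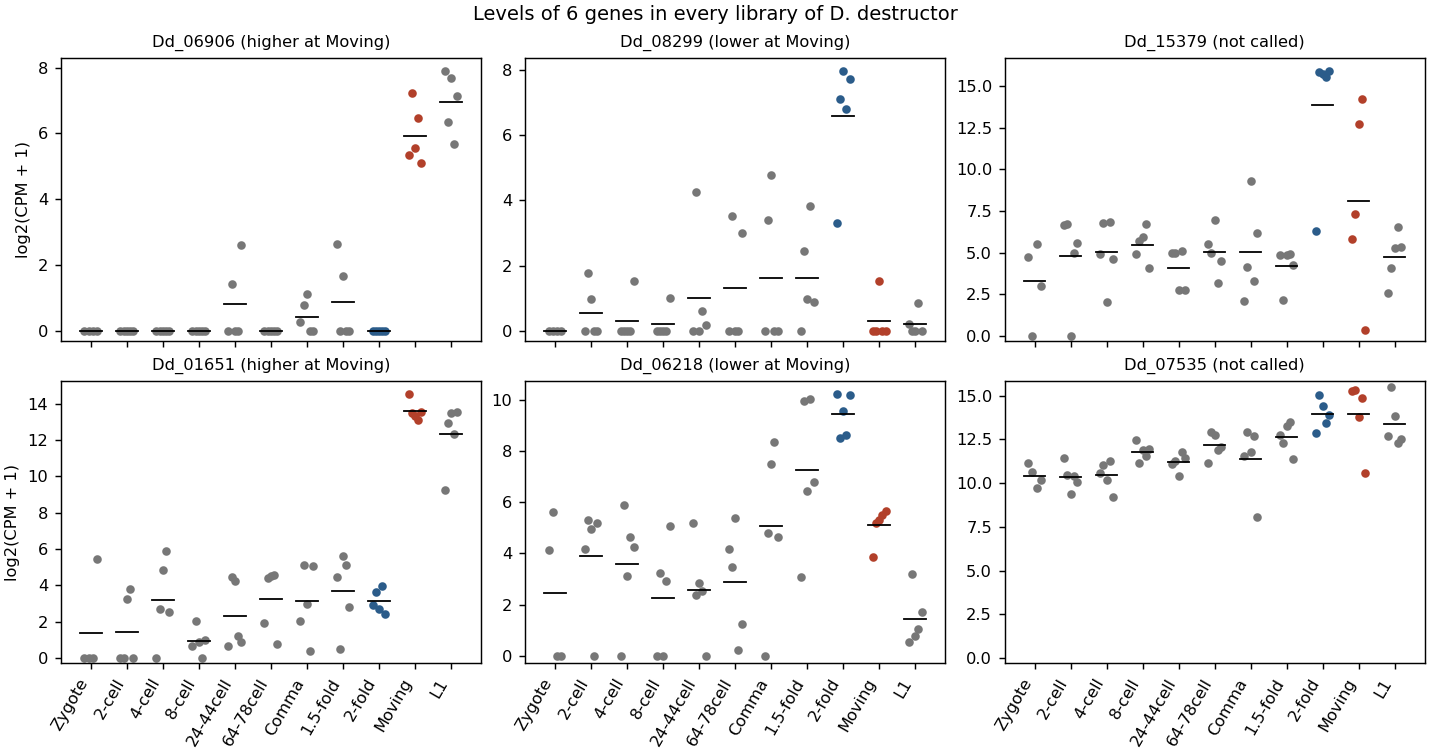
Log2(CPM + 1) of 6 genes in every D. destructor library by stage, with lines at the mean of each stage, 2-fold in blue and Moving in red. Dd_06906 and Dd_01651 are near 0 or low until 2-fold and high at Moving and L1, Dd_08299 is high at 2-fold and Dd_06218 at 1.5-fold and 2-fold, and Dd_15379 is high in 4 of 5 2-fold and 2 of 5 Moving embryos.

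The 38 genes called higher without Moving 5 were mostly genes with high levels in larvae. The Moving and 2-fold libraries left aside, 35 of them (92.1%) had their highest stage mean at L1, against 18.7% of the genes tested, 2 had it at Comma and 1 at 64-78 cells. All 6 genes called with all 10 libraries were highest at L1, against 18.9% of those tested. The median of the stage means of the 38 genes was 280 CPM at Moving and 2.41 CPM at 2-fold, 3.91 CPM at 1.5-fold and 160 CPM at L1. With Moving included, 25 of the 38 were highest at Moving and 12 at L1. The Moving libraries chose these genes, so the count at Moving is partly fixed by the choice.

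The per-embryo levels of these 38 genes were uneven within the Moving stage. Their median was 330, 286, 290, 37.3 and 32.5 CPM in Moving embryos, against 1.04, 2.25, 3.37, 2.998 and 0.322 CPM in 2-fold embryos, and it lay between 81.7 and 162 CPM in the 5 L1 libraries. Moving 4, the Moving embryo with the lowest position, was far below Moving 1 to Moving 3, and so was Moving 5. Together the 38 genes held 5.56%, 4.17%, 2.53%, 1.44% and 1.72% of the counts of the Moving embryos, against 0.0281% to 0.0420% of the counts of the 2-fold embryos. These levels chose the genes and are given as a description.

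The 38 genes called lower mostly had their highest level at 2-fold. Over all 11 stages, 30 of them were highest at 2-fold, a count that is partly fixed because the same libraries chose the genes. With Moving and 2-fold left aside, 23 (60.5%) were highest at Comma or 1.5-fold, against 37.8% of the genes tested, 6 between zygote and 8 cells, 5 at 24 to 78 cells and 4 at L1. Their median was 21.7, 26.1, 17.3, 21.0 and 16.6 CPM in Moving embryos, against 154, 380, 651, 412 and 386 CPM in 2-fold embryos, 2-fold 1 being the lowest. It ran between 31.3 and 103 CPM in the 1.5-fold libraries, below every 2-fold embryo. The 38 genes held 0.0930% to 0.267% of the counts at Moving, against 1.19%, 5.26%, 6.99%, 4.59% and 5.34% at 2-fold, and the gene with the largest fall among them, on chromosome 2, averaged 13.6 CPM at Moving and 21379 CPM at 2-fold.

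**Figure D5:**
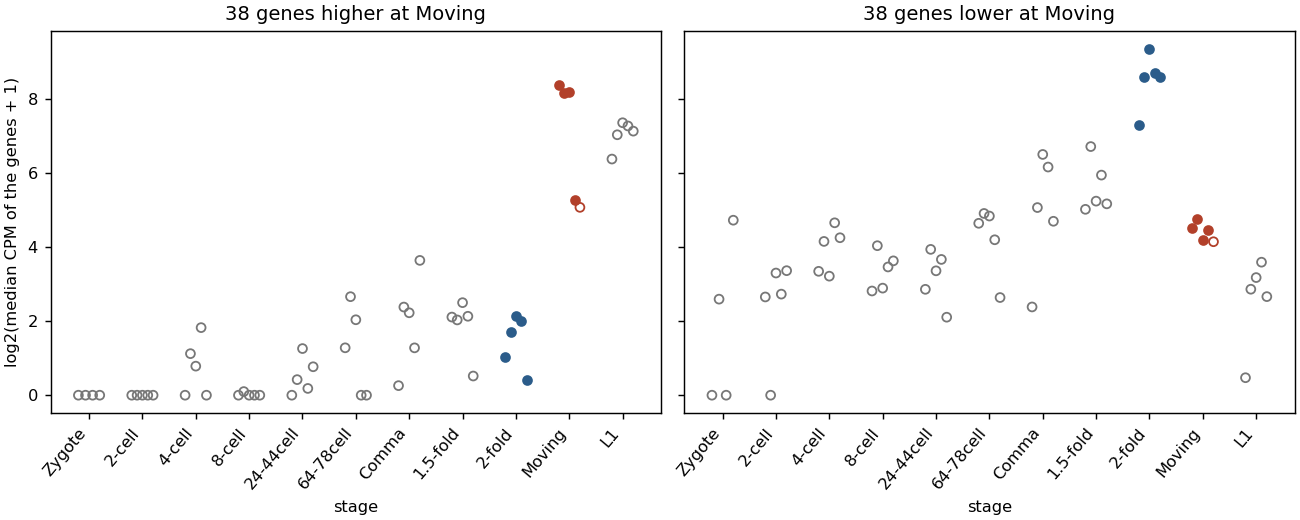
Median CPM, as log2(median + 1), of the 38 genes called higher (left) and the 38 called lower (right) at Moving without Moving 5, in every D. destructor library by stage, with filled points for libraries used in the call and open points for the others. The higher genes are at 286 to 330 CPM in Moving 1 to Moving 3, 37.3 CPM in Moving 4 and 81.7 to 162 CPM at L1, and the lower genes reach 154 to 651 CPM at 2-fold.

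Libraries that took no part in this call gave a readout of the same genes. Moving 5 was above all 5 2-fold embryos for 25 of the 38 higher genes, against 26.7% of the genes tested, and it had 0 counts for 7 of them. The L1 libraries were above all 2-fold embryos for 26 to 35 of the 38 (15.0% to 23.2% of the genes tested), and the 1.5-fold libraries for 7 to 16 (20.1% to 29.7%). For the 38 lower genes, Moving 5 was below all 2-fold embryos for 28, against 29.7% of the genes tested, with 0 counts for 14. The L1 libraries were below all of them for 34 to 36 genes (16.7% to 28.5% of the genes tested), and the 1.5-fold libraries for 22 to 32 (9.60% to 19.1%). The 2-fold values in these counts are those that chose the genes, so part of each count is fixed by the choice.

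The comparison of L1 with 1.5-fold uses neither stage. It called 637 of 11404 genes higher (5.59%) and 295 lower (2.59%) at L1 (edgeR, adjusted p under 0.05). Of the 38 higher genes, 34 were tested there, 22 (64.7%) were higher at L1 and 0 lower. Of the 38 lower genes, 36 were tested, 9 (25.0%) were lower at L1 and 0 higher. Among the genes tested in both comparisons, 5.54% were higher and 2.61% lower. With all 10 libraries, 5 of the 6 higher genes were higher at L1, and 1 of the 7 lower genes tested was lower.

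Read the other way, the 22 genes were 22 of the 637 and the 9 genes 9 of the 295, so that few of the genes that separate L1 from 1.5-fold were called between Moving and 2-fold. Of the 637 genes, 616 were tested with all 10 libraries here and 524 of these had a positive log2 fold change, with a median of 1.41 (1.33 without Moving 5). Of the 295 genes, 290 were tested and 37 had a positive one, with a median of -1.01 (-0.97 without Moving 5). The median over all genes was 0.03, so that both lists leaned towards L1 at Moving.

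Grouping all genes by the stage at which they were highest outside this comparison showed the same lean. The 2397 genes highest at L1 had, with all 10 libraries, a median log2 fold change of 0.78 at Moving, against 0.03 for all genes tested. In 165 of them (6.88%) every Moving embryo was above every 2-fold embryo, and in 3 every one was below, against 2.23% and 0.977% of all genes. Without Moving 5 the median was 0.80, and 310 of 2484 (12.5%) were above and 9 below. Relative to all genes, the median of the L1 class was higher by 0.75, and it stayed between 0.67 and 0.83 when any single library was left out and at 0.73 with scaling by relative log expression.

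The shift of the L1 class was present in each Moving embryo. Measured in each library against the mean of the 5 2-fold libraries, to which each 2-fold library itself contributes, and relative to all genes, it was 0.80, 0.84, 0.69, 0.54 and 1.10 in Moving embryos on the log2 scale, against -0.44, 0.11, 0.20, 0.05 and -0.02 in 2-fold embryos. All Moving values lay above all 2-fold values, with Moving 4 the lowest of its stage and 2-fold 1 the lowest of all. The highest value was that of Moving 5, which had 0 counts for 22.4% of the genes at 1 CPM in all other libraries. Whether such missing genes raise a value taken relative to all genes was not tested. The 4723 genes highest at Comma or 1.5-fold had a median of -0.02, and 81 (1.72%) were below and 58 (1.23%) above without overlap. Without Moving 5 this turned round, with a median of 0.10, 110 (2.19%) below and 171 (3.40%) above among 5030 genes, beside 0.09, 1.38% and 4.69% for all genes, so that no direction is read for this class. The 2063 genes highest at 24 to 78 cells had a median of -0.23 (-0.22 without Moving 5), and the 3501 highest between zygote and 8 cells one of -0.10 (-0.09). The median of all genes was 0.14 with relative log expression, so only differences between classes are read here.

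The called genes were spread over the genome. Without Moving 5, 0.286% of all genes tested were called higher and 0.286% lower. Chromosomes 1, 2, 3 and 4 had 2568, 3245, 2846 and 4626 genes tested. They held 10, 8, 9 and 11 higher genes and 10, 10, 12 and 6 lower genes. With all 10 libraries these were 1, 1, 2 and 2 higher and 0, 2, 4 and 2 lower genes. In that fit 0.0473% of all genes tested were called higher and 0.063% lower. Without Moving 5, the genomic span of a gene, from start to end with introns, had a median of 2060 bases among the higher genes and 3529 bases among the lower, against 3893 bases among all genes tested. Of the 1790 genes tested in the fifth with the shortest spans, 13 were higher and 3 lower, and of the 3075 in the fifth with the longest, 6 and 9. With all 10 libraries these were 3 and 0 of 1569, and 2 and 5 of 3033.

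Neighbouring genes were looked at without Moving 5 only. Among 11592 adjacent pairs with both genes tested, 43 had both genes above and 3 both below without overlap in Moving 1 to Moving 4, where 4.69% and 1.38% of single genes were above and below. With 0.286% of genes called in each direction by edgeR, too few were called for a count of pairs called together to be read. Across pairs, which are not independent, the Pearson r of the log2 fold changes was 0.14. It was 0.39 for the 661 overlapping pairs, whose reads may not be separable because the kit does not mark strand, and 0.25 for the 1451 pairs on the same strand with at most 500 bases between them, against 0.11 for the 4247 pairs on the same strand further apart, 0.14 for 2544 head-to-head pairs and 0.09 for 2689 tail-to-tail pairs.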

How the data were processed

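The deposited values were whole-number counts per gene and library. To make these counts, the authors ran fastp (version 0.20.1) for trimming, HISAT2 for alignment and HTSeq for counting. For the D. destructor assembly and the strand setting, the sources used here give nothing, and every column of the species' table was assigned by its name. The tables of the other species were not used here. Members, groups and lists were chosen with earlier results of these data known.

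CPM was computed from the deposited counts. Moving was tested against 2-fold with edgeR (version 4.0.16, R version 4.3.3) after filterByExpr and TMM scaling, by the quasi-likelihood test on these libraries only, with Benjamini-Hochberg adjustment over all genes tested and a threshold of 0.05. The standard error was taken from the log2 fold change and its F statistic. Measures per library were compared with two-sided exact permutation tests. The test was checked on simulated counts.

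IDs were named by rule: in each direction, among called genes that averaged 10 CPM or more in the higher stage and had no overlap between stages, the largest fold change and the smallest p, and the 2 highest mean levels among genes not called. Alternatives were DESeq2 (version 1.42.0), other scalings, no filter, a stricter filter, a minimum change, thinned counts, all libraries in 1 fit, the replicate number as a block, and the omission of each library. No 95% intervals were needed for shares of counts, and with PCR reads lacking molecular identifiers counting error is a lower limit.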

Additional observations from a re-analysis of the deposited data

Results flagged for a closer look

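Of the values examined, 6 stood apart from the other embryos of their stage by Dixon's ratio at the 95% level, among 21 groups of 5 embryos examined. For normally distributed values, which was not checked here, chance gives such a value in about 1 of 20 groups. Moving 5 had 8034 genes at 1 CPM or more, and its mean r with the other Moving libraries was 0.486. In 2-fold 1 the position between 1.5-fold and L1 was -0.154. Dd_01651 reached 23662 CPM in Moving 1, against 8904 to 12080 CPM in the other Moving embryos. Dd_08299 had 1.92 CPM in Moving 3 and 0 in the other Moving embryos, where any value above 0 would have been flagged. Dd_15379 had 77.6 CPM in 2-fold 1, against 48132 to 60877 CPM in the other 2-fold embryos.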

How the results depend on the processing

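The number of called genes depended on the processing, and the cause was not tested. With all 10 libraries, where 6 genes were higher and 8 lower at Moving, DESeq2 called 364 and 169, no filter 33 and 28, all D. destructor libraries in 1 fit 45 and 27, thinned counts 12 and 8, relative log expression 16 and 10, and library totals alone, chosen after seeing the data, 25 and 16. When each library was left out in turn, the counts ran between 0 and 46 higher and between 0 and 54 lower. Without Moving 5, where 38 and 38 were called, DESeq2 gave 414 and about 2.5e+02, no filter 81 and 72, thinned counts 54 and 44, all libraries in 1 fit 36 and 20, and further omissions 8 to 97 and 1 to 130, with Moving 2 the omission that left fewest. Of the 14 genes, all were still called by DESeq2, relative log expression, no filter and thinned counts, and 8 in the fit of all libraries. DESeq2 called 1272 genes higher and 777 lower at L1 than at 1.5-fold, against 637 and 295, and omissions gave 512 to 595 and 224 to 349.

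Replicate numbers did not pair the embryos: deviations of same-numbered Moving and 2-fold embryos correlated at -0.06 to 0.03, and 0 of 5 embryos matched best with their own number. With the replicate number as a block, 1 gene was higher and 0 lower (755 genes at an unadjusted p under 0.05, edgeR), 1 and 0 without Moving 5 (1125 genes), and 496 and 237 for L1 over 1.5-fold. With the block the log2 fold change of Dd_07535 was -0.12.

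The difference in genes detected ran between -305 and 1477 over the omissions (-305 without 2-fold 5). The difference in the share of counts held by a library's 100 highest genes was -4.92 percentage points (28.3% at Moving and 33.3% at 2-fold, exact permutation p = 0.198), and -7.67 to -3.39 over the omissions, with p = 0.0317 by the exact permutation test without 2-fold 1. The difference in position kept its direction and its side of the threshold in all alternatives (0.109 to 0.187, exact permutation p = 0.00794 to 0.0159). Over the omissions the edgeR adjusted p was 0.00937 to 0.124 for Dd_06906, 0.00358 to 0.055 for Dd_01651, 0.00965 to 0.138 for Dd_08299 and 0.00965 to 0.124 for Dd_06218, with no change of direction, and Dd_07535 ran between -0.054 and 0.65 on the log2 scale. Genes with few counts, and changes smaller than the spread between embryos, were not detectable at this depth and number of embryos.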

Other observations

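Among the 76 genes called without Moving 5, 3 pairs lay within 50 kb of each other on the same strand. How many such pairs 76 genes placed at random would give was not computed, so the count is a description only. Both genes were higher at Moving in 2 pairs on chromosome 4, with log2 fold changes of 4.23 and 10.50 across 36864 bases and of 8.65 and 9.10 across 46025 bases. In the third pair, on chromosome 3, 1 gene was higher (7.85) and the other, 16215 bases away, lower (-3.58) at Moving. The genes of a pair were not adjacent ones.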
